A study of Mus musculus with 6 samples.

Results

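Promoters of long noncoding RNA (lncRNA) genes were examined in chromatin profiles of TAF4b and H3K4me3 from fetal mouse male germ cells. A listed interval counted as a lncRNA promoter when its deposited class was promoter-TSS (TSS, transcription start site) and the transcript named in that class belongs to a gene of type lncRNA in GENCODE M39. By this rule 1736 of the 13454 promoter-TSS regions in H3K4me3 replicate 1 were lncRNA promoters, and 94 of 1037 in replicate 2. In the TAF4b lists they were 352 of 5756 promoter-TSS peaks in replicate 1 and 42 of 748 in replicate 2. A lncRNA promoter is called near here when the start site of its named transcript lies within 1000 bp of a start site of a protein-coding gene, and isolated otherwise. Other start sites of the same gene were not used, and at some isolated promoters one of them lies beside a coding start site. Near and isolated promoters numbered 630 and 1106 in H3K4me3 replicate 1, 67 and 27 in H3K4me3 replicate 2, 215 and 137 in TAF4b replicate 1, and 33 and 9 in TAF4b replicate 2.

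The cells were prospermatogonia of male C57BL/6 embryos at E16.5 (embryonic day), labelled Taf4b-wildtype. All came from mice homozygous for an Oct4-EGFP transgene, and living green fluorescent cells were sorted from dissociated gonads. CUT&RUN, in which an antibody directs a nuclease to cut out the DNA around its target, was done with antibodies to TAF4b, to H3K4me3 and with IgG, in 2 replicates each. The IgG libraries were not analysed here, and the labels do not say whether replicates came from separate litters or sorts, so the spread between them may be technical.

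Long noncoding RNAs are capped, usually spliced transcripts without a long reading frame. Many start next to a protein-coding gene and run in the opposite direction from a shared, often CpG-rich, bidirectional promoter. Others start far from any coding gene, or host small nucleolar RNAs (snoRNAs) in their introns. TAF4b is a germ cell-enriched paralogue of TAF4, a subunit of TFIID, the complex that recognises core promoters and recruits RNA polymerase II. H3K4me3 is a histone mark laid down around start sites of CpG-rich and transcribed genes, and a TFIID subunit can bind it.

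The replicates were of very unequal size. H3K4me3 lists held 64891 and 1730 regions and TAF4b lists held 7861 and 848 peaks (all of 1 fixed width within a list), with lowest listed scores of 16.4 and 96 for H3K4me3 and of 6.45 and 40.5 for TAF4b. The peak score is the authors' own value and was compared within 1 list at a time. Read depth was not known. As a check of the sorted cells, 7 of 12 germ cell marker genes, among them Ddx4 and Dazl, had an H3K4me3 promoter-TSS region in replicate 1, against 44.0% of all protein-coding genes. The same number had a TAF4b promoter-TSS peak in replicate 1, against 22.7% of all protein-coding genes. H3K4me3 promoter-TSS regions were also listed at 4 of 6 Sertoli cell markers (Sox9, Dhh, Cldn11 and Wt1), 2 of 6 Leydig and interstitial markers (Insl3 and Nr2f2) and 1 of 6 endothelial and blood markers (Kdr), none of which had a TAF4b promoter-TSS peak. No promoter-TSS interval of either antibody was listed for the other somatic markers, among them Amh, Fshr, Cyp17a1, Ptprc and Hbb-bs, nor for the germ cell markers Pou5f1, Nanos2 and Nanos3. Intervals of any class or named gene were also counted where they crossed a start site or were centred within 500 bp of one. By that count Pou5f1, the Oct4 gene, had an H3K4me3 replicate 1 region. The interstitial marker Nr2f2 had a TAF4b replicate 1 peak by the same count, the only one among the somatic markers. In replicate 2 no marker had a promoter-TSS interval of either antibody, where 4.13% and 3.14% of protein-coding genes had one. The part of somatic cells in the H3K4me3 values below was not tested.

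The sequences below are GRCm39 bases under TAF4b replicate 1 peaks of 6 lncRNA genes that had a TAF4b promoter peak in both replicates, and for contrast the window around the start site of Fendrr, where no TAF4b peak was listed. Each is written 5′ to 3′ on the strand of the lncRNA. Capitals mark matches, on either strand, to the GC box GGGCGG, the CCAAT box CCAAT, the TATA box TATAAA, the ETS core CCGGAA and the cyclic AMP element TGACGT. The peaks of Snhg8 (chr3:123302079-123302221, minus strand) and Gas5 (chr1:160862499-160862641, plus strand) are those of snoRNA host genes. Mir22hg (chr11:75352221-75352363, plus strand) hosts the microRNA miR-22. Crnde (chr8:93082771-93082913, minus strand) starts beside Irx5. The peaks of 9330104G04Rik (chr7:16608878-16609020, minus strand) and 5430416N02Rik (chr5:100577405-100577547, minus strand) had the highest replicate 1 scores among shared genes of the near class and the second highest among those of the isolated class. Fendrr (chr8:121809800-121810099, minus strand) is a lncRNA of lateral mesoderm that starts beside Foxf1.
Snhg8: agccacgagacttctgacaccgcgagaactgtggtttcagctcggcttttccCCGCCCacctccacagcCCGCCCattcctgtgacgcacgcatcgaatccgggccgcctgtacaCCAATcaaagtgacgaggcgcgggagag
Gas5: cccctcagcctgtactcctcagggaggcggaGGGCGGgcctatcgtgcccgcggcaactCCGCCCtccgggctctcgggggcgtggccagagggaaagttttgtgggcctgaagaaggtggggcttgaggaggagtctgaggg
Mir22hg: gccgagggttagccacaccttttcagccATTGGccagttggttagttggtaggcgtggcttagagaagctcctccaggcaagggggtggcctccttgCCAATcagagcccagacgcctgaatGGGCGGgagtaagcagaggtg
Crnde: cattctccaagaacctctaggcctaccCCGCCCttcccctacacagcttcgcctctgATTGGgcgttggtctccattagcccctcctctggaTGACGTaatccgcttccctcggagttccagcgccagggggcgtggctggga
9330104G04Rik: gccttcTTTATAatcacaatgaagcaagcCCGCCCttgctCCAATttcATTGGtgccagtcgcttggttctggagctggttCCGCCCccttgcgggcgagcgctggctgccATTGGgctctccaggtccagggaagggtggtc
5430416N02Rik: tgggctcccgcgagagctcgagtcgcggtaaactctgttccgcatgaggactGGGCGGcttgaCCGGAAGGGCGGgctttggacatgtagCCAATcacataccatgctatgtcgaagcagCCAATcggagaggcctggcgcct
Fendrr: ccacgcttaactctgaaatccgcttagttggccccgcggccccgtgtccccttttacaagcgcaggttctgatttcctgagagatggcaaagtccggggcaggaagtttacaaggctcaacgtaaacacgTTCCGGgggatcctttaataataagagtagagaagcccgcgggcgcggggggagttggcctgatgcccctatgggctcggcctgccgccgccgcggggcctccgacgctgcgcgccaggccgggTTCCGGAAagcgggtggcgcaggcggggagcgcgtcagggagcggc
Each of the 6 peaks held at least 1 GC box, and 5 of the 6 held a CCAAT box, the exception being Gas5. The Fendrr window of 300 bases held neither, although 64.7% of its bases were G or C. Of isolated lncRNA windows of that length without a TAF4b peak, 22.1% held a GC box and 38.95% a CCAAT box, so most lacked each. The 6 genes, out of 30 with a TAF4b promoter peak in both replicates, and Fendrr were picked as examples. Peaks of 143 bases at promoters of every gene type held a GC box in 56.9% and a CCAAT box in 37.9% of cases, so single matches are common. In GENCODE M39 the peaks overlap exons of the lncRNA at Snhg8, Gas5, 9330104G04Rik and 5430416N02Rik. The Crnde peak lies in the gene outside its exons and overlaps an exon of the antisense lncRNA Gm64284, and the Mir22hg peak lies upstream of the gene in an exon of the antisense lncRNA Gm57332.

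lncRNA genes took a smaller share of TAF4b promoter peaks than of H3K4me3 promoter regions. Among promoter-TSS intervals with a gene type, TAF4b replicate 1 named lncRNA genes in 6.16% of cases (5.57 to 6.82; intervals beside a share are 95% Wilson intervals, and those beside a difference of shares are 95% Newcombe intervals). TAF4b replicate 2 named them in 5.65% (4.21 to 7.55). Their share was 12.99% (12.4 to 13.6) of H3K4me3 replicate 1 and 9.14% (7.52 to 11.1) of H3K4me3 replicate 2. Both TAF4b values lay below both H3K4me3 values. The means were 5.91% ± 0.361 and 11.1% ± 2.73 (SD, n = 2 each), a difference of -5.16 percentage points and the exact permutation test over libraries (two-sided) gave p = 0.333, which is the lowest value open to 2 libraries against 2. The isolated class was 8.28% of H3K4me3 replicate 1 and 2.40% of TAF4b replicate 1, where the near class was 4.72% and 3.77%. In replicate 2 the isolated class was 2.62% and 1.21%, and the near class 6.51% and 4.44%. In replicate 1 the gap thus lay mostly in the isolated class, and in replicate 2 in both.

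A TAF4b peak was less frequent at lncRNA than at protein-coding H3K4me3 promoter regions in replicate 1, and no difference beyond counting error was seen in replicate 2. In replicate 1, 29.5% of promoter-TSS regions of every gene type overlapped a TAF4b peak by at least 1 bp. The share was 16.8% of lncRNA promoters (291 of 1736, 15.1 to 18.6) and 33.9% of protein-coding promoters (3564 of 10528, 33.0 to 34.8). The difference was -17.1 percentage points (-19 to -15.1). In replicate 2, where the share over every gene type was 8.87%, it was 9.57% of lncRNA promoters (9 of 94, 5.12 to 17.2) and 8.65% of protein-coding promoters (78 of 902). That difference of 0.927 points had an interval of -3.96 to 8.74, which includes 0. The coding share of replicate 2 leaves no room for a difference in points as large as in replicate 1. The mean difference over replicates was -8.08 points with an exact permutation p of 1.

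Each region list was also compared with the peak list of the other replicate number. Against TAF4b replicate 2, H3K4me3 replicate 1 regions overlapped a peak in 4.33% of cases over every gene type, in 2.19% of lncRNA promoters (38 of 1736) and in 5.06% of protein-coding ones, a difference of -2.87 points (-3.61 to -1.98). Against TAF4b replicate 1, the few H3K4me3 replicate 2 regions overlapped a peak in 41.0% of cases over every gene type, in 38.3% of lncRNA promoters (36 of 94) and in 41.4% of protein-coding ones, a difference of -3.06 points (-12.8 to 7.53). The lower lncRNA share was found with either TAF4b list at the regions of H3K4me3 replicate 1, and not beyond counting error at the smaller region list.

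**Figure D1:**
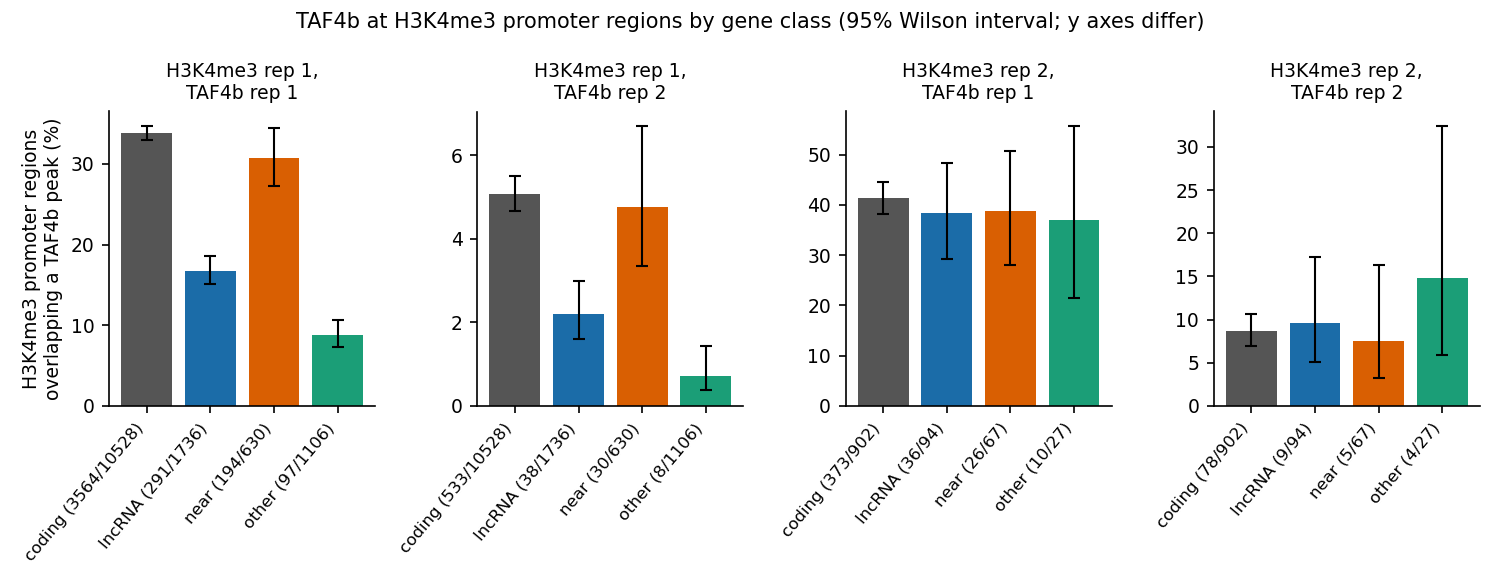
Share of H3K4me3 promoter regions (y, percent, with a separate axis for each panel) that overlap a TAF4b peak, for protein-coding genes, all lncRNA genes, near lncRNA genes and isolated lncRNA genes (marked other), in the 4 pairings of lists. Bars carry 95% Wilson intervals and labels give the counts; at the H3K4me3 replicate 1 regions the isolated lncRNA bar is the lowest in both panels, at 8.77% and 0.723%, and at the H3K4me3 replicate 2 regions the intervals overlap.

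Within lncRNA genes, TAF4b was more frequent at promoters close to a coding start site than at isolated ones in replicate 1. In replicate 1 the share was 30.8% of near promoters (194 of 630, 27.3 to 34.5) and 8.77% of isolated promoters (97 of 1106, 7.24 to 10.6), a difference of 22.0 points (18.1 to 26.0). Near lncRNA promoters differed from all protein-coding promoters by -3.06 points, with an interval of -6.66 to 0.76 that includes 0. From the protein-coding promoters that themselves have a lncRNA start site within 1000 bp (40.7%, 1303 of 3198) they differed by -9.95 points (-13.8 to -5.87). Protein-coding promoters without such a neighbour had a share of 30.9% (2261 of 7330). With TAF4b replicate 2 at the same regions, near and isolated shares were 4.76% (30 of 630) and 0.723% (8 of 1106).

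In the smaller H3K4me3 list near and isolated promoters did not differ beyond counting error with either TAF4b list. With TAF4b replicate 1 the share was 38.8% of near (26 of 67) and 37.0% of isolated promoters (10 of 27), a difference of 1.77 points (-19.8 to 21.4). With TAF4b replicate 2 it was 7.46% of near promoters (5 of 67) and 14.8% of isolated promoters (4 of 27), a difference of -7.35 points with an interval of -25.5 to 5.20. The mean difference over replicates was 7.34 ± 20.8 points (SD, n = 2), with an exact permutation p of 1, so the spread between replicates was larger than the difference. All 27 isolated regions of this list overlapped a region of replicate 1.

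In replicate 1 the TAF4b share was lower with each step away from the coding start site. It was 36.0% (105 of 292) within 100 bp, 32% (48 of 150) from there to 250 bp, 25.9% (28 of 108) to 500 bp and 16.3% (13 of 80) to 1000 bp. Beyond that it was 10.4% (13 of 125) up to 5000 bp, 9.25% (49 of 530) up to 50000 bp and 7.76% (35 of 451) farther away. The intervals of each pair of neighbouring bands overlap. At the H3K4me3 replicate 2 regions, with 8 to 25 promoters a band, the shares with TAF4b replicate 1 in the same order were 52%, 40%, 8.33%, 40%, 37.5%, 30% and 44.4%, which showed no such order. At those regions the highest share with TAF4b replicate 2 was 30% (3 of 10), from over 5000 to 50000 bp. At the H3K4me3 replicate 1 regions the highest share with TAF4b replicate 2, 10% (15 of 150), was in the band from 100 to 250 bp. Within 100 bp it was 2.40% (7 of 292). The median H3K4me3 width moved with the distance too, from 1486.5 bp in the nearest band to 817 bp in the farthest.

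**Figure D2:**
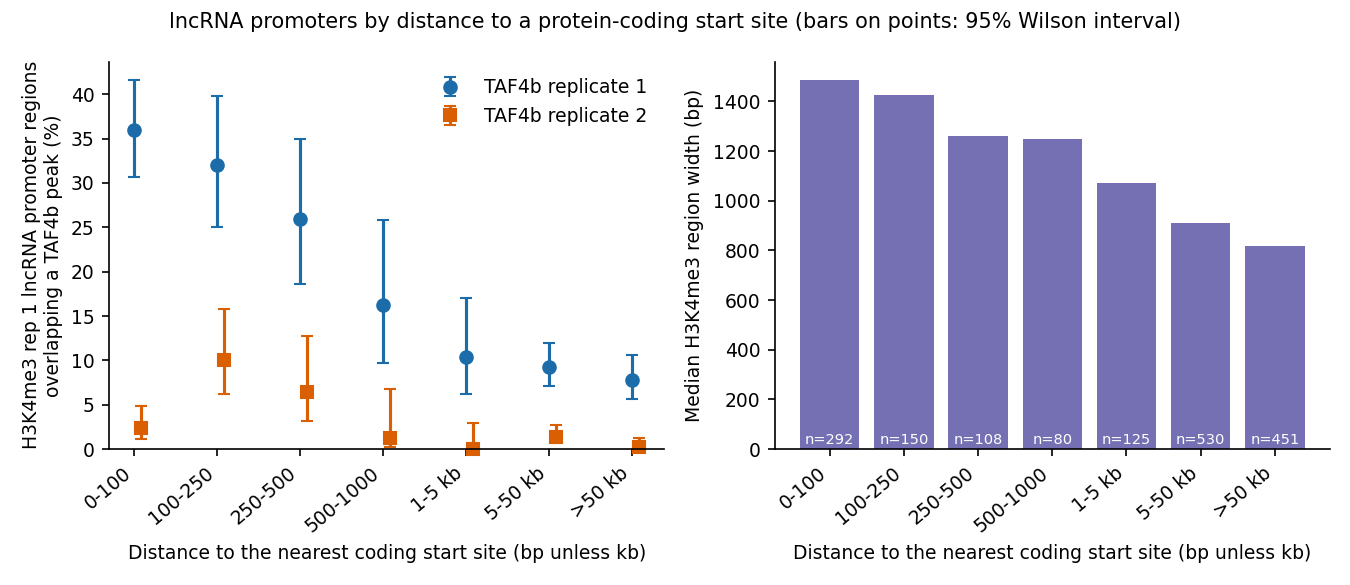
Left, share (percent) of H3K4me3 replicate 1 lncRNA promoter regions overlapping a TAF4b peak of replicate 1 (circles) or replicate 2 (squares), by distance of the lncRNA start site to the nearest coding start site, with 95% Wilson intervals. Right, the median H3K4me3 region width (bp) and the number of regions in the same bands; both the replicate 1 share and the width are highest within 100 bp, at 36.0% and 1486.5 bp.

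Near lncRNA genes were sorted by orientation. Divergent genes are transcribed away from the coding gene on the other strand, overlapping genes are on the other strand and run into it, and the rest lie on the same strand. Of the 630 near promoters in H3K4me3 replicate 1, 345 were divergent, 268 overlapping and 17 on the same strand. A TAF4b replicate 1 peak was found at 36.5% of divergent promoters (126 of 345, 31.6 to 41.7), at 23.9% of overlapping ones (64 of 268, 19.2 to 29.3) and at 4 of 17 on the same strand. The divergent start sites were also closer to the coding start site, with a median distance of 76 bp against 217 bp for the overlapping ones. With TAF4b replicate 2 the divergent and overlapping shares were 4.64% and 5.22%, with overlapping intervals, so the order was not repeated.

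The positions of TAF4b promoter peaks were described within the promoter-TSS class, which reaches from about 1000 bp upstream to 100 bp downstream of a start site by the interval's centre. Most peaks of any class are thus upstream by the way they were chosen. In replicate 1 the median position of the peak centre relative to the start site of the named transcript was -86 bp at near lncRNA genes, -64 bp at isolated ones and -76 bp at coding genes. The centre lay upstream in 77.2% (71.2 to 82.3), 78.1% (70.5 to 84.2) and 79.2% of cases. In replicate 2 the medians were -72, -74 and -104 bp, and the upstream shares 66.7% (22 of 33, 49.6 to 80.3), 7 of 9 and 84.5% (81.6 to 87.0). The 11 overlapping near peaks of replicate 2 had a median of 234 bp, inside the lncRNA, with 4 of 11 upstream. The near peaks were more spread out: the 100 bp just upstream of the start site held 30.7% of them, against 45.3% of isolated and 38.6% of coding peaks in replicate 1.

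Many near promoter peaks cannot be given to the lncRNA alone. Of all 215 near peaks in TAF4b replicate 1, 30.7% had their centre between the lncRNA and the coding start site and 47.4% had it closer to the coding one. Of the 69 overlapping ones, 10.1% lay between and 20.3% were closer to the coding start site. Of the 138 divergent near peaks in TAF4b replicate 1, 42.8% had their centre between the lncRNA and the coding start site, and 60.1% had it closer to the coding start site. In replicate 2, 12 of 20 lay between both start sites and 14 of 20 were closer to the coding one. By the deposited nearest start site, 28.4% of the lncRNA promoter peaks in TAF4b replicate 1 and 21.0% of the lncRNA promoter regions in H3K4me3 replicate 1 were nearest to a coding gene, and 57.1% of the near regions were. Conversely, 288 H3K4me3 replicate 1 regions whose class names a coding transcript were nearest to a lncRNA start site.

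**Figure D3:**
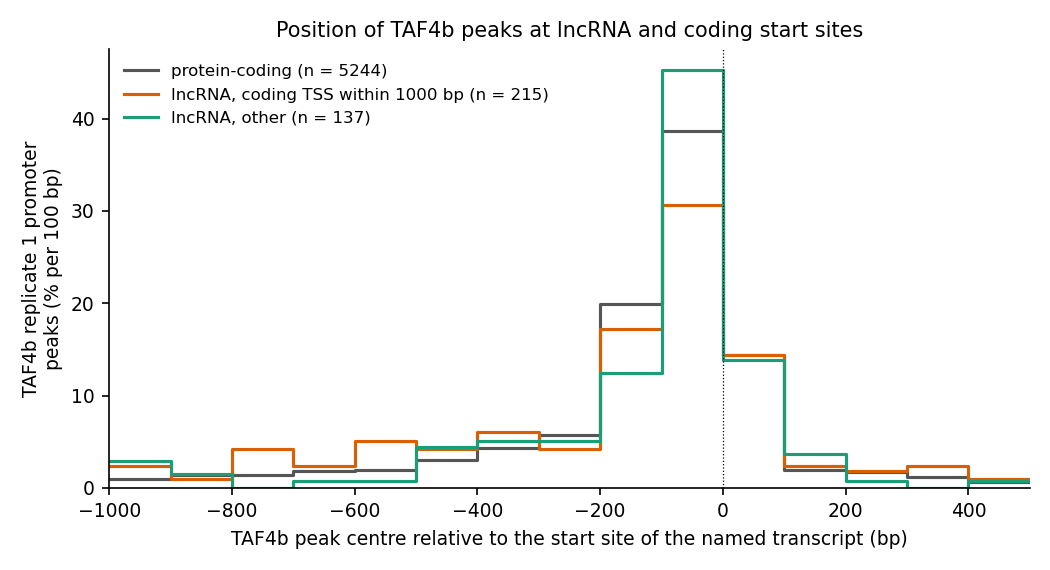
Position of TAF4b replicate 1 promoter peak centres relative to the start site of the named transcript (x, bp, negative upstream) as a percentage of peaks per 100 bp (y), for coding, near lncRNA and isolated lncRNA (marked other) genes. All 3 classes peak in the 100 bp upstream of the start site, at 38.6%, 30.7% and 45.3%.

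H3K4me3 regions were narrower and scored lower at isolated lncRNA promoters in replicate 1, while near lncRNA promoters had a higher median width than coding ones. The median width was 1026 bp over all lncRNA promoters (lowest 500, highest 4872) and 1275 bp over protein-coding promoters, a ratio of 0.805. It was 1421 bp for near and 884.5 bp for isolated lncRNA promoters, and 1393 bp for the coding promoters with a lncRNA start site within 1000 bp. The median scores were 89.4 for near lncRNA, 83.5 for coding, 65.6 for all lncRNA and 56.6 for isolated lncRNA promoters, and 90.9 for the coding promoters with a lncRNA start site within 1000 bp. In replicate 2 the median width was 500 bp and the median score 111.2 in each of the coding, near and isolated classes. In that list 56.4% of promoter-TSS regions of every gene type had the smallest width, 500 bp. That smallest width was found at 77.8% of isolated (21 of 27, 59.2 to 89.4), 58.2% of near (39 of 67) and 55.9% of coding regions. Over both replicates the log2 ratio of median widths was -0.16 ± 0.22 (SD, n = 2) for lncRNA against coding and 0.34 ± 0.48 for near against isolated, each with an exact permutation p of 1. As most replicate 2 regions of each class had the smallest width, the replicate 2 ratio could only be 0. These means therefore cannot show whether the width difference repeats.

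Broad regions were more frequent among near than among isolated lncRNA promoters in replicate 1. Regions of 2000 bp or more made up 23.7% of near (149 of 630, 20.5 to 27.1), 5.70% of isolated (63 of 1106) and 15.2% of coding regions, and 18.5% of coding regions with a lncRNA start site within 1000 bp, where the share over every gene type was 14.0%. Regions of 3000 bp or more made up 5.24% of near (33 of 630), 0.723% of isolated (8 of 1106) and 2.38% of coding regions, against 2.21% over every gene type.

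The TAF4b shares were then compared within bands of region width. At regions wider than 1000 bp and up to 1500 bp, a TAF4b replicate 1 peak was found in 37.1% of near lncRNA (59 of 159), 12.4% of isolated lncRNA (33 of 267) and 36.5% of coding promoters. From there to 2000 bp the shares were 44.0% (59 of 134), 16.2% (19 of 117) and 45.1%. Above 2000 bp they were 34.5% (51 of 148), 11.3% (7 of 62) and 46.6%, and at 500 bp 18.03% (11 of 61), 3.30% (7 of 212) and 12%. In each of the 6 bands but that of over 500 and up to 750 bp, where 4 of 60 near (6.67%), 12 of 176 isolated (6.82%) and 19.1% of coding promoters had a peak, the near share was higher than the isolated one. From over 750 to 1000 bp the shares were 14.7% of near (10 of 68), 6.99% of isolated (19 of 272) and 24.6% of coding promoters. The isolated share was below the coding share in all 6 bands. A summary used other bands, cut at the quartiles of lncRNA region width, each weighted by its number of lncRNA regions. By it the replicate 1 shares were 26.3% of near and 9.69% of isolated promoters, a difference of 16.6 points. The replicate 2 shares were 6.70% and 24.5%. In replicate 2, 21 of the 27 isolated regions had the smallest width, so the wider bands held few. Among the 41 lncRNA regions of 3000 bp or more, 11 (26.8%, 15.7 to 41.9) overlapped a TAF4b replicate 1 peak, against 102 of 250 coding regions (40.8%, 34.9 to 47.0).

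**Figure D4:**
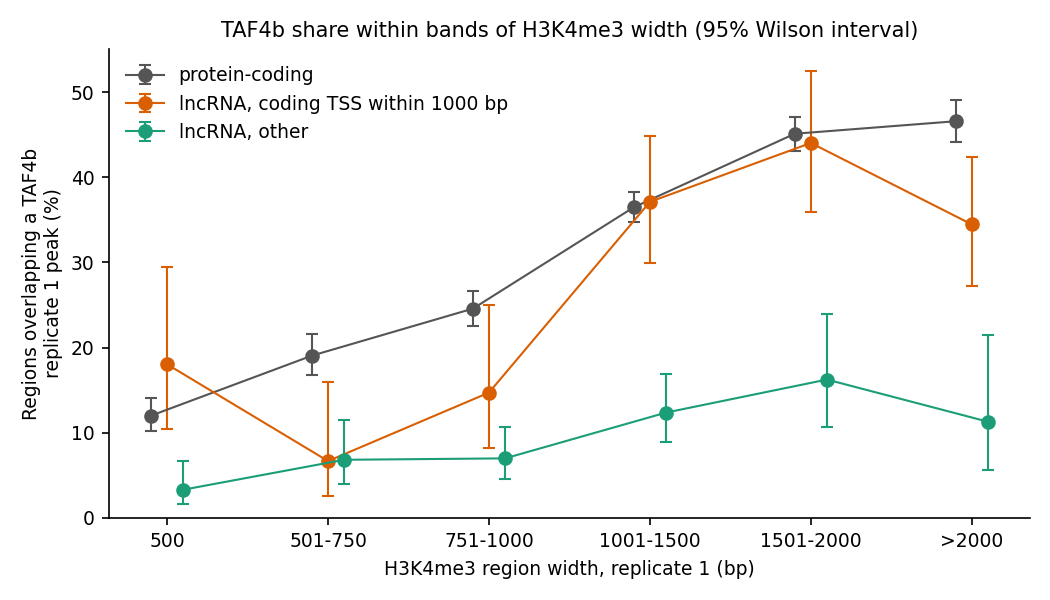
Share (percent) of H3K4me3 replicate 1 promoter regions overlapping a TAF4b replicate 1 peak (y) within bands of region width (x, bp) for coding, near lncRNA and isolated lncRNA (marked other) promoters, with 95% Wilson intervals. From over 1000 to 2000 bp near lncRNA promoters lie with the coding ones, at 37.1% and 44.0% against 36.5% and 45.1%, from over 500 to 1000 bp they lie below, at 6.67% and 14.7% against 19.1% and 24.6%, and isolated lncRNA promoters stay at or below 16.2% in every band.

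TAF4b peak scores were lowest at isolated lncRNA promoters in both replicates, by their medians. In replicate 1 the median score was 14.9 at lncRNA and 17.4 at coding promoters, and 15.9 and 12.9 at near and isolated lncRNA promoters. In replicate 2 it was 68.8 at lncRNA and 60.7 at coding promoters, and 68.8 and 56.7 at near and isolated ones. The isolated median of replicate 2 rests on 9 peaks with quartiles of 44.5 and 68.8, a range that holds the coding median. Near lncRNA peaks had the higher median in both replicates, whereas lncRNA against coding changed sign between them. The log2 ratio for the latter was -0.02 ± 0.29 (SD, n = 2; exact permutation p of 1).

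Base composition separated isolated from near lncRNA promoters. In the window from 250 bp before to 50 bp after the start site, the median GC content was 65% at near lncRNA, 60.7% at coding and 51.7% at isolated lncRNA promoters of H3K4me3 replicate 1. The observed over expected ratio of CpG dinucleotides had medians of 0.808, 0.710 and 0.40. Within bands of GC content, isolated promoters carried a TAF4b replicate 1 peak in 3.08% (4 of 130), 7.55% (48 of 636), 11.4% (31 of 271) and 20.3% (14 of 69) of cases from the lowest band to the highest. Coding promoters in the same bands, under 45%, 45 to 55%, 55 to 65% and from 65% of bases, had shares of 21.3%, 26.7%, 35.2% and 38.2%. Near promoters had shares of 14.3% (3 of 21), 22.7%, 27.7% and 36.3%. GC content moved with the TAF4b share in all 3 classes, and the isolated class was lowest in each band. With each GC band weighted by its number of lncRNA promoters, the near and isolated shares were 26.3% and 11.0%, a difference of 15.3 points.

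Short sequence matches followed composition in part. The GC box GGGCGG, bound by SP and KLF family factors, was in 52.6% of windows of every gene type, in 62.1% of near lncRNA windows and in 23.8% of isolated lncRNA windows (263 of 1106). The CCAAT box, bound by NF-Y, was in 35.8% of windows of every gene type, in 28.7% of near and in 39.96% of isolated lncRNA windows. Where an isolated lncRNA region overlapped a TAF4b replicate 1 peak, 41.2% of windows held a GC box (40 of 97, 32.0 to 51.2) and 50.5% a CCAAT box (49 of 97, 40.7 to 60.2). Where it did not, the shares were 22.1% and 38.95%. Over every gene type a GC box was in 65.7% of windows with and 47.1% without a TAF4b peak, and a CCAAT box in 41.7% and 33.3%, so windows with a peak also held both more often over all genes. At near lncRNA windows the GC box shares were 73.2% with and 57.1% without a TAF4b peak, and the CCAAT shares were 28.9% and 28.7%. The TATA box TATAAA was in 10.9% of isolated windows, 4.13% of near windows and 6.94% of windows of every gene type. It was in 3.09% (3 of 97) of isolated windows with a TAF4b peak and 11.6% without one. Over every gene type those shares were 5.32% and 7.62%, also lower with a peak. The ATGGCG core of YY1 sites was in 18.3% of near, 8.41% of isolated and 14.4% of windows of every gene type. The ETS core CCGGAA was in 16.8% of isolated lncRNA windows and 21.5% of windows of every gene type, and the cyclic AMP element TGACGT was in 8.50% and 9.38%. The NRF1 core GCATGC was in 7.50% and 8.39%, and the element ACTACAA of some ubiquitously active promoters was in 2.44% and 2.91%. Matches were searched on both strands, and CCGGAA may overlap itself and GGGCGG. They describe these letters and not binding.

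Most lncRNA promoter peaks of the smaller TAF4b list were also in the larger one. Of promoter-TSS peaks of every gene type in TAF4b replicate 2, 81.3% overlapped a replicate 1 peak. At lncRNA promoters 30 of 42 did (71.4%, 56.4 to 82.8), and at coding promoters 82.9%. In the other direction, 8.52% of the lncRNA promoter peaks of replicate 1 (30 of 352) overlapped a replicate 2 peak, against 10.6% over every gene type. The share was 11.2% of near peaks (24 of 215) and 4.38% of isolated peaks (6 of 137). lncRNA promoter peaks lay in an H3K4me3 replicate 1 region in 84.1% of cases in TAF4b replicate 1 (86.3% over every gene type) and in 90.5% in TAF4b replicate 2 (90.8% over every gene type). They lay in an H3K4me3 replicate 2 region in 9.09% of cases in TAF4b replicate 1 (32 of 352, against 8.36% over every gene type) and in 23.8% in TAF4b replicate 2 (10 of 42, 13.5 to 38.5, against 13.0% over every gene type).

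At the level of genes, a TAF4b promoter peak was listed for 336 lncRNA genes in replicate 1, for 42 in replicate 2 and for 30 in both, which is 8.93% of the first list and 71.4% of the second. H3K4me3 promoter regions named 1695 lncRNA genes in replicate 1, 94 in replicate 2 and 64 in both. By position rather than name, 92 of the 94 lncRNA regions of replicate 2 (97.9%) overlapped a replicate 1 region, against 97.97% over every gene type. Of the 30 genes with TAF4b in both, 24 were near a coding start site, at a median of 174.5 bp (35 to 504 bp), and 16 of those 24 were divergent. In the whole lists of replicates 1 and 2, 215 of 352 and 33 of 42 lncRNA peaks were near, and 64.2% and 60.6% of the near peaks were divergent. The peaks of both replicates overlapped at all 30, and at 27 the replicate 1 peak lay in an H3K4me3 replicate 1 region. Their scores ran from 19.9 to 56.6 (median 35.2) in replicate 1 and from 44.5 to 125.5 (median 68.8) in replicate 2.

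Values are given for some of the near genes, and the gene with the highest replicate 2 score, 125.5, is not described here. 4930583K01Rik, divergent from the nonsense-mediated decay kinase gene Smg1, scored 44.2 in replicate 1 and 113.4 in replicate 2. C130036L24Rik, divergent from the nucleolin gene Ncl, scored 51.6 and 109.3. These start sites lie 91 and 98 bp from the coding ones, and neither gene's peaks can be told apart from TAF4b at the coding gene. 4932412D23Rik, 35 bp from the zinc finger gene Zbtb20, scored 35.7 and 101.2, and Mir22hg, 176 bp from Tlcd2, scored 38.2 and 97.2. Of the near genes with TAF4b in both replicates, 2 are listed snoRNA hosts: Snhg1 beside the amino acid transporter gene Slc3a2 scored 45.2 and 81, and Gas5 beside Zbtb37 scored 34.2 and 52.6. At Snhg1 the replicate 1 peak centre lay 421 bp inside the annotated lncRNA and at -7 bp from the deposited nearest start site, that of Slc3a2.

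**Figure D5:**
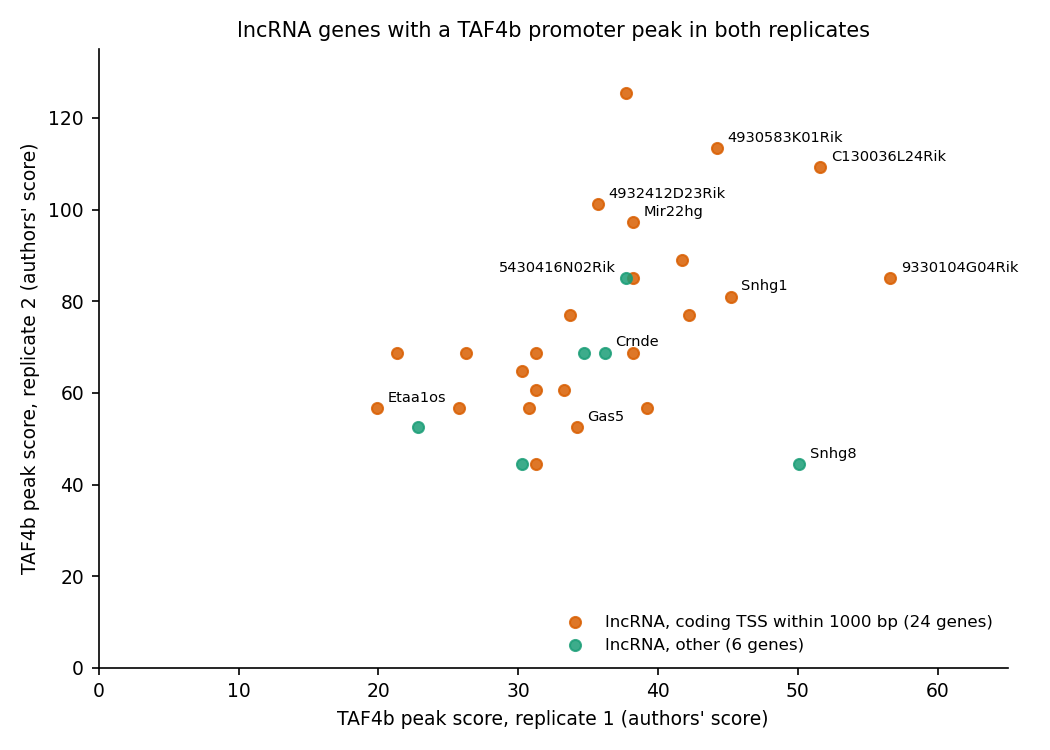
TAF4b peak scores in replicate 1 (x) and replicate 2 (y), the authors' score in each list, for the 30 lncRNA genes with a promoter peak in both, 24 near (orange) and 6 isolated (green). 9330104G04Rik is highest in replicate 1 at 56.6, and C130036L24Rik is high in both at 51.6 and 109.3, while Snhg8, isolated, pairs 50.1 with 44.5, the lowest replicate 2 value, which 3 genes share.

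By the start site of the named transcript, the other 6 genes with TAF4b in both replicates lay more than 1000 bp from a coding start site. 5430416N02Rik, 12997 bp from Sec31a, scored 37.7 and 85, and its peak centres lay at -54 and -61 bp from the start site. Crnde, 1734 bp from the homeobox gene Irx5, scored 36.2 and 68.8, and its peak centres lay at -323 and -337 bp from the start site of the named transcript. Another annotated start site of Crnde lies 6 bp from one of Irx5. Gm15287, 24732 bp from Mier3, scored 34.7 and 68.8. Snhg8, 51786 bp from Ndst3, scored 50.1 and 44.5. The remaining genes are not described here. All 6 replicate 1 peaks lay in an H3K4me3 replicate 1 region, as did the replicate 2 peaks.

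Promoter intervals in all 4 lists were found at 3 lncRNA genes, 1 of which is described here. At 4930578M07Rik, which overlaps the start of the nuclear transport gene Nutf2, the H3K4me3 region scored 190.8 (1462 bp) in replicate 1 and 187 (783 bp) in replicate 2, and TAF4b scored 33.3 and 60.7.

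The highest TAF4b scores of replicate 1 were not all repeated. Among near genes, 9330104G04Rik beside the Wnt antagonist gene Dact3 scored 56.6, 1110020A21Rik beside the phosphatase gene Ppm1b 53.6, C130036L24Rik 51.6, Snhg1 45.2 and 4930583K01Rik 44.2. Of these 5, 1110020A21Rik had no replicate 2 peak. Among isolated genes the order was 2610005L07Rik at 57.1, Snhg8 at 50.1, 5430416N02Rik at 37.7, Crnde at 36.2 and 6720427I07Rik at 35.2. The 2610005L07Rik peak lay in no H3K4me3 region of either replicate and had no replicate 2 peak, its symbol belongs to more than 1 gene identifier in GENCODE M39, and its assignment is therefore uncertain. 6720427I07Rik had no replicate 2 peak either.

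Lists of known lncRNA genes were followed by function. Of all 32884 lncRNA genes of GENCODE M39, 5.15% had an H3K4me3 promoter-TSS region and 1.02% a TAF4b promoter-TSS peak in replicate 1, and 0.286% and 0.128% in replicate 2. The listed genes were chosen as well known, so their counts are descriptions, and differences between the lists were not tested. snoRNA hosts, whose introns release the RNAs that guide ribosomal RNA modification, had an H3K4me3 promoter region in 14 of 19 cases and a TAF4b promoter peak in 9 in replicate 1. Those 9 were among the 14, where 13.0% of all lncRNA genes with an H3K4me3 replicate 1 promoter region had a TAF4b replicate 1 promoter peak. They were Snhg8 (TAF4b score 50.1), Snhg1 (45.2), Gas5 (34.2), Snhg6 (26.8), Snhg12 (23.8), Snhg5 (22.3), Snhg3 (21.8), Snhg16 (14.4) and Snhg4 (13.4). Snhg1, Snhg8 and Gas5 were repeated in replicate 2. Snhg10, 164 bp from Glrx5, had a replicate 2 peak scoring 72.9 and no promoter peak in replicate 1. The Snhg5 peak lay in no H3K4me3 region. Snhg4 has a protein-coding gene of the same symbol at the same start, so its class is uncertain. A looser count took any interval that crossed a start site of the gene or was centred within 500 bp of one. By it, 19 of the 19 snoRNA hosts had an H3K4me3 region and 12 a TAF4b peak in replicate 1. The share of all lncRNA genes by this count was not computed.

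Of 17 widely expressed nuclear and regulatory lncRNA genes, 8 had an H3K4me3 promoter region and 6 a TAF4b promoter peak in replicate 1. The 6 were Mir22hg (38.2), Crnde (36.2), Malat1 (16.9), Terc (13.4), Firre (9.43) and Neat1 (8.93). Malat1 and Neat1 are abundant nuclear RNAs, Terc is the telomerase RNA and Firre an X-linked RNA of nuclear architecture. The Neat1 peak centre lay 1238 bp inside the gene by its M39 start site, nearest to the start of Frmd8os. The peaks of Malat1, Neat1 and Terc lay in no H3K4me3 region, and of the 6 genes Mir22hg and Crnde had a replicate 2 peak. H3K4me3 promoter regions without a TAF4b promoter peak were found in replicate 1 at Pvt1 (score 92.4), Dancr (98.4), Lncpint (104.3 for the higher of 2) and Mir124a-1hg (95.4), among others. By the looser count of any interval at a start site, 14 of the 17 genes had an H3K4me3 region and 9 a TAF4b peak in replicate 1.

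Of 12 lncRNA genes of X inactivation and imprinting, 4 had an H3K4me3 promoter region in replicate 1 and 0 a TAF4b promoter peak in either replicate. The 4 were Ftx (score 90.9, 1940 bp), an activator of the X inactivation centre, Meg3 (76, 1615 bp) and H19 (41.7, 792 bp), maternally expressed imprinted RNAs, and Tsix (50.7, 757 bp), the antisense of Xist. The looser count of any interval that crossed a start site or was centred within 500 bp of one gave 9 of 12 for H3K4me3 replicate 1. Xist, Jpx, Kcnq1ot1, Airn and Peg13 were added by that count. It gave 1 for TAF4b replicate 1, Airn, whose start sites include one 66 bp from a start site of Igf2r.

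Of 13 lncRNA genes beside or overlapping genes of developmental regulators, 5 had an H3K4me3 promoter region in replicate 1, 3 in replicate 2 and 0 a TAF4b promoter peak in either. The replicate 1 regions were those of Fendrr (score 256.4, 3579 bp), Evx1os (250.4, 4377 bp), Wt1os (229.6, 3764 bp), Gata6os (65.6, 1139 bp) and Sox2ot (20.9, 500 bp). In replicate 2 they were those of Wt1os (111.2, 634 bp), Six3os1 (106.1, 500 bp) and Fendrr (101.1, 500 bp). Wt1 is also a Sertoli cell marker. By the looser count of any interval at a start site, 12 of the 13 genes had an H3K4me3 region in replicate 1. By that count 0 had a TAF4b peak in either replicate. The wide Evx1os region overlapped a TAF4b replicate 1 peak farther away.

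Among the 5 widest lncRNA regions of H3K4me3 replicate 1 were those of Gm47920 beside the transcriptional coactivator gene Zmiz1 (4647 bp, score 250.4), Gm28386 beside the ephrin receptor gene Epha4 (4585 bp, 322), Gm10649 beside the mineralocorticoid receptor gene Nr3c2 (4523 bp, 360.7) and Evx1os beside the homeobox gene Evx1 (4377 bp). Among the 5 highest scores were those of Gm10649, Litchi beside the acetylcholine transporter gene Slc18a3 (354.8), 4921522P10Rik beside the ephrin gene Efnb2 (326.4) and Gm28386. Both sets together hold 7 regions, 1 of them not described here. Of the 7, 2 overlapped a TAF4b replicate 1 peak, that of Evx1os among them, and 0 overlapped a replicate 2 peak. Over promoter-TSS regions of every gene type in that list the shares were 29.5% and 4.33%. Of the 41 lncRNA regions of 3000 bp or more, 33 were near a coding start site, and 10 overlapped an H3K4me3 replicate 2 region (24.4%), against 7.47% of promoter-TSS regions of every gene type and 13.6% of coding regions of that width.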

How the data were processed

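CUT&RUN for TAF4b and H3K4me3 was analysed from 4 deposited lists, 1 per library and not pooled. The authors' peak score, a score without a stated normalization, was deposited with coordinates and an annotation class. A deposited column of the TAF4b lists that holds a fraction was not used. Bowtie2 2.3.0, SAMtools 1.9, HOMER 4.10 and GRCm39 are named per the submitters' processing notes, and the H3K4me3 file headers name annotatePeaks with Ensembl release 103. The TAF4b headers name no build, and no TAF4b interval passes a GRCm39 chromosome end. Peak-calling settings are not given in the sources used here. The promoter-TSS class is assigned from the interval's centre, so wide regions across a start site can fall in another class.

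Transcripts in the class were matched to GENCODE M39 (99.2% to 99.3% of promoter-TSS rows matched); 20 of 1736 lncRNA regions in H3K4me3 replicate 1 had their centre over 1100 bp from the M39 start site of the named transcript. Distances run to any start site of a protein-coding gene. Intervals overlapped at 1 bp or more. Python 3.11.15, pandas 2.3.3, numpy 2.4.6 and scipy 1.17.1 were used, and the functions were tested on simulated data. Wilson and Newcombe intervals cover counting error only. Tests were exact permutation tests over library values, since intervals are not replicates. Sequence came from GRCm39.

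Genes named were lncRNA genes with TAF4b promoter peaks in both replicates, the 5 highest TAF4b replicate 1 scores of each distance class, the 5 widest and 5 highest-scoring H3K4me3 replicate 1 regions, and listed genes; others named were chosen after their values were seen. Some genes the rule names are not reported here. Of 64 listed lncRNA genes 61 were used: Nespas was not matched by symbol, and Tug1 and Ptprv are protein_coding in M39. Members and lists were chosen with earlier results of these data known. Alternatives covered scores, one row per gene, overlap rules, distance limits, width and GC bands, and each replicate left out.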

Additional observations from a re-analysis of the deposited data

How the results depend on the processing

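The 8 comparisons of lncRNA promoters gave 79 alternative values, 12 of them from alternatives chosen after seeing the data. Of the 79, 24 follow from the design (the pairing of replicates and leaving 1 out), and of the other 55, 53 kept the direction of the mean and 2 reversed. Leaving out 1 replicate gave the value of the other: the TAF4b share of lncRNA against coding promoters ranged from -17.09 to 0.927 percentage points, that of near against isolated lncRNA promoters from -7.35 to 22.0 points, and the log2 ratio of TAF4b median scores from -0.22 to 0.18, so that without replicate 1 each of these 3 reversed. Without replicate 1 the 4 log2 ratios of H3K4me3 width and score were 0 and had no direction. With the higher-scoring 50% of each list the log2 ratio of TAF4b median scores was 0.0545. At equal widths the mean near against isolated difference was -0.633 points, made of 16.6 points in replicate 1 and -17.8 in replicate 2, and the cause was not tested. In replicate 1 alone, the lncRNA against coding difference was -13.7 points at equal widths, -14.3 at equal GC content and -18.1 with the class taken from the nearest start site.

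Same-numbered replicates were also compared as pairs (a replicate block). The labels do not say that a number marks shared cells, and 2 pairs cannot give a sign-flip p below 0.5. With the block the lncRNA share of promoter intervals differed by -5.16 points between TAF4b and H3K4me3 (sign-flip p 0.5), and the other means were those without it: -8.08 and 7.34 points for the TAF4b shares, and log2 ratios of -0.16, -0.17, -0.02, 0.34 and 0.33. Read depth is unknown, and the H3K4me3 replicate 2 list holds 27 isolated lncRNA promoters.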

Other observations

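TAF4b replicate 2 had promoter peaks at 12 lncRNA genes without an overlapping replicate 1 peak. The highest scores among them were those of 4930481B07Rik, 446 bp from the zinc finger gene Zfp687 (105.3), 1700010B13Rik, 112 bp from Slc45a4 (101.2), and Snhg10 (72.9). The H3K4me3 replicate 1 region of 4930481B07Rik was 3476 bp wide with a score of 298.1. These genes were chosen after their values were seen.

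Of the lncRNA promoter regions in H3K4me3 replicate 1, 29 of 1736 lay on the X chromosome (1.67%, 95% Wilson interval 1.17 to 2.39), against 320 of 10528 protein-coding ones (3.04%, 2.73 to 3.38). The share of all annotated genes of each class on X was not counted, so the values of this paragraph are descriptions only. In TAF4b replicate 1 the counts were 8 of 352 (2.27%, 1.16 to 4.42) and 145 of 5244 (2.77%). H3K4me3 replicate 2 listed 0 of 94 lncRNA (up to 3.93% by the interval) and 1 of 902 protein-coding promoter regions on X. TAF4b replicate 2 listed 10 of 685 protein-coding peaks there (1.46%) and 1 of 42 lncRNA peaks (2.38%, 0.422 to 12.3), at BC065397 beside Morf4l2, which had TAF4b scores of 38.2 and 85.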
